A study of Mus musculus with 2 samples.

Results

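Prolactin, placental lactogens and growth hormone act on islets through 2 related cytokine receptors, and 10 genes of that pathway were examined here in islets of mice with a beta cell-specific deletion of Zbtb20. The genes were the receptor genes Prlr and Ghr, the transcription factor genes Stat5a and Stat5b, the feedback inhibitor genes Cish and Socs2, and the islet target genes Tph1, Tph2, Neb and Fam151a. They were taken by symbol, as every probe set that the platform annotation assigns to a single member gene. This gave 18 probe sets for 9 of the 10 genes, out of 18193 genes with such a probe set on the array. Prlr had none in the annotation used, so its signal was not read and only its promoter windows were searched. The set was put together with the difference between these 2 arrays known, so the values below are a description and were not tested.

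Islets labelled as b cell-specific ZBTB20 knockout were measured on 1 Affymetrix array, and islets of littermates labelled wildtype on 1 array. Zbtb20 encodes a zinc finger transcription repressor, and the study sought its target genes in beta cells. The labels give an age of 2 to 3 months and a mixed background for all mice, and both groups of islets were kept in culture overnight after collagenase digestion and hand-picking. The promoter or Cre line behind the deletion, whether the littermates carried such a transgene, and how many animals stood behind an array are not given in the sources used here. A difference made by a transgene and one made by loss of Zbtb20 therefore cannot be told apart in the ratios below, those of Cish, Socs2, Neb and Fam151a included. Only beta cells were to lose the gene, and the RNA came from whole islets, in which alpha, delta and PP cells and attached tissue keep it. A difference in the number of cells of a type and a difference in RNA per cell cannot be told apart in such a sample. The 9 probe sets of Zbtb20 itself gave log2 ratios, knockout-labelled over wildtype, above 0 in 4 cases and below 0 in 5. Signals under the floor described below were raised to it, and weak probe sets were kept. A probe set under the floor on both arrays thus has a ratio set by the floors alone. The log2 ratios ran from -0.87 to 0.54, with a median of -0.06. They therefore do not check the label, and these islets are called knockout-labelled. Signals of the islet hormone genes were among the brightest on both arrays, with Ins2 (insulin) at 7786 in knockout-labelled and 9194 in wildtype islets. With 1 array per group no error between animals is known.

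Binding of a lactogen to its receptor activates the kinase JAK2, which phosphorylates STAT5A and STAT5B. The STAT5 proteins then move to the nucleus, bind palindromic sites of the form TTCNNNGAA and switch on target genes, among them Cish and Socs2, whose products dampen the same receptors. In islets the pathway is best known from pregnancy, when lactogens raise beta cell mass and induce Tph1, the gene for the serotonin-synthesising enzyme tryptophan hydroxylase.

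Promoter windows from RefSeq (GRCm38.p6) ran from 250 bases before to 50 bases after an annotated transcript start. They were searched for TTCNNNGAA, which reads the same on both strands. Windows were found for 8 of the 10 genes, all but Socs2 and Neb. Of the 4 members whose signals were at least 2-fold higher, Cish and Fam151a had a window. The part of each before the gene start is shown in lower case, 5′ to 3′ on the strand of the gene, with TTCNNNGAA in capitals. The Cish stretch covers chr9:107296409-107296678 on the plus strand and runs on past the start to the end of the second copy. The Fam151a stretch covers chr4:106733665-106733914 on the plus strand, and the 50 bases after its start were searched but are not shown.
Cish: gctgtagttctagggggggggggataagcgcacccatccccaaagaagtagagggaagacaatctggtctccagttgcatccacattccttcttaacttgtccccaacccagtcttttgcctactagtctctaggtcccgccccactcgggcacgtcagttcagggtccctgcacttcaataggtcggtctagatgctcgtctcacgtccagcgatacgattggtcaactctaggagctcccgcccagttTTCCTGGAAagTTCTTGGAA
Fam151a: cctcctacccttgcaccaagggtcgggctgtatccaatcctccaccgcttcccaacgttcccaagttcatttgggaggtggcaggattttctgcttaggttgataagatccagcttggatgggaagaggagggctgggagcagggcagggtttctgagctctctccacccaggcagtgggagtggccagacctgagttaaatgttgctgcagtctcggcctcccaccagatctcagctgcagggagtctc
Cish held 2 copies, starting at positions 1 and 12 counted from the annotated gene start. Fam151a held none in its window. Among 32851 windows of 300 bases, 8.30% held the motif, 0.457% held 2 or more copies, and 27 windows (0.0822%) held 2 copies starting within 30 bases of each other. Prlr held 1 copy in 1 of its 3 windows, at position -110 from a transcript start inside the gene. The windows of Ghr, Stat5a, Stat5b, Tph1 and Tph2 held none. Those of Stat5a and Stat5b all lay at transcript starts inside the gene, so the gene starts by the coordinates given below were not searched. A match is a run of letters and not a measured binding site.

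Both feedback inhibitor genes and the targets Neb and Fam151a were higher in the knockout-labelled islets, by 2.43-fold to 3.01-fold, while Ghr, Stat5a, Stat5b and Tph1 had signals close to those of wildtype islets. Signals are linear probe set intensities from MAS5, the Affymetrix algorithm that combines the probes of a probe set. The 50th percentile of each array (21.7 knockout-labelled, 21.6 wildtype) was used as a floor, below which a signal was not read as a level, and the brightest of a gene's probe sets stood for it. Ratios of 2-fold or more were counted. Of the 8 members above the floor, 4 were at least 2-fold higher and 0 were 2-fold lower. Over all 11802 genes above the floor on at least 1 array, 1.82% were higher by 2-fold or more and 1.44% lower by that much. Counted by probe set, 5 of the 16 member probe sets above the floor were 2-fold higher or more and 0 were 2-fold lower, against 1.88% higher and 1.29% lower of 21257 probe sets. The members were picked on this contrast, so nothing is read from their larger share. Their median log2 ratio was 0.70, against 0 over all genes, and no member lay between 0.13 and 1.28.

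**Figure D1:**
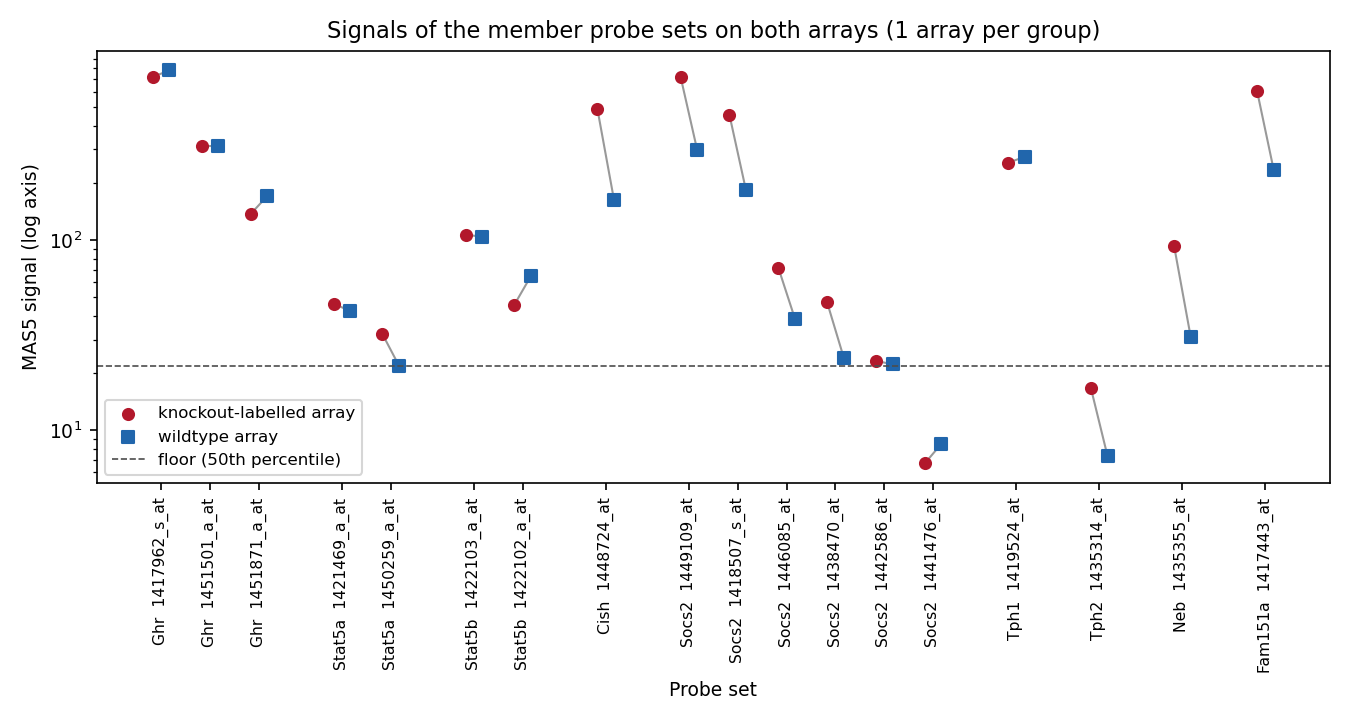
MAS5 signals on a log axis for the 18 member probe sets, with the knockout-labelled array as red circles left of the wildtype array as blue squares and a grey line joining both signals of a probe set. Cish, Neb, Fam151a and the 4 brightest Socs2 probe sets have the circle well above the square, and 1 Socs2 probe set and Tph2 lie below the floor (dashed) on both arrays.

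Of the 2 receptor genes, only Ghr had signals to read. It encodes the growth hormone receptor and lies on chromosome 15 at 3317755 to 3583352 (GRCm38.p6). Its brightest probe set, 1417962_s_at, gave 723 in knockout-labelled and 782 in wildtype islets, a log2 ratio of -0.11. The next, 1451501_a_at, gave 313 in knockout-labelled and 312 in wildtype islets. The weakest, 1451871_a_at, gave 137 in knockout-labelled and 170.5 in wildtype islets, a log2 ratio of -0.31. The largest of these differences was 1.24-fold, in a gene whose alternative transcripts encode the full receptor and the soluble growth hormone-binding protein. The probe sets were not assigned to either form.

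Stat5a and Stat5b encode the STAT5 proteins, are close paralogs and lie side by side on chromosome 11, Stat5b at 100780731 to 100859004 and Stat5a at 100859351 to 100885169. Stat5a gave 46.3 in knockout-labelled and 42.4 in wildtype islets with 1421469_a_at. With 1450259_a_at it gave 32.0 in knockout-labelled and 21.8 in wildtype islets, where the wildtype signal is next to the floor. The log2 ratios of Stat5a were 0.13 and 0.55. Stat5b gave 107 in knockout-labelled and 104 in wildtype islets with 1422103_a_at. Its other probe set, 1422102_a_at, went the other way, with 45.8 in knockout-labelled and 64.9 in wildtype islets, a log2 ratio of -0.50. No STAT5 probe set reached 2-fold, and those of Stat5b did not share a direction. A probe set can take up transcripts of the other gene of the pair. How the probe sets align to either gene was not examined.

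Both feedback inhibitor genes were higher. Cish encodes CIS, an SH2 domain protein that docks on activated cytokine receptors, and lies on chromosome 9 at 107296659 to 107302784. Its 1 probe set, 1448724_at, gave 487 in knockout-labelled and 162 in wildtype islets, 3.01-fold higher. Of all 11802 genes it ranked at position 50 from the highest ratio. Genes with a mean signal between 200 and 500 had a central 95% of log2 ratios from -0.64 to 0.72, and Cish, in that range of signal, was at 1.59.

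Socs2 encodes another SH2 domain inhibitor, best known for limiting growth hormone signalling, since mice without it grow large. It lies on chromosome 10 at 95383903 to 95417321 and had 6 probe sets. The brightest, 1449109_at, gave 725 in knockout-labelled and 299 in wildtype islets. The next, 1418507_s_at, gave 457 in knockout-labelled and 183 in wildtype islets. These are log2 ratios of 1.28 and 1.32 from separate probe sets built on the same RefSeq transcript. Weaker probe sets built on expressed sequence tags pointed the same way by less. With 1446085_at the signal was 71.8 in knockout-labelled and 38.7 in wildtype islets, and with 1438470_at it was 47.1 in knockout-labelled and 24.1 in wildtype islets. With 1442586_at it was 23.2 in knockout-labelled and 22.2 in wildtype islets, next to the floor. The sixth, 1441476_at, was under the floor on both arrays, at 6.7 in knockout-labelled and 8.5 in wildtype islets. All 5 probe sets above the floor had a log2 ratio above 0, and 2 of them were at least 2-fold higher, with an SD of 0.51 among the 5. The median SD among probe sets of 1 gene was 0.21 over 4719 genes. Probe sets share the RNA and the array, so their spread leaves out variation between animals.

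The islet target genes split. Tph1 and Tph2 encode the tryptophan hydroxylases of peripheral tissues and of brain. Tph1, on chromosome 7 at 46644641 to 46672537, gave 255 in knockout-labelled and 274 in wildtype islets with its 1 probe set, a log2 ratio of -0.11. It was above the floor on both arrays, and 64.1% of all genes had a higher ratio. Tph2, on chromosome 10 at 115078641 to 115185022, gave 16.6 in knockout-labelled and 7.3 in wildtype islets. Both signals were under the floor, so no ratio is given for it. Th, the related tyrosine hydroxylase gene, gave 134 in knockout-labelled and 204 in wildtype islets.

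Neb and Fam151a were higher. Neb encodes nebulin, the giant actin-binding protein of the skeletal muscle thin filament, and lies on chromosome 2 at 52136640 to 52338798. Its 1 probe set, 1435355_at, gave 93.6 in knockout-labelled and 31.1 in wildtype islets, 3.01-fold higher, the rank above Cish. The wildtype signal is weak, and a floor at the 70th percentile brought the log2 ratio to 0.48, under 2-fold. Fam151a, on chromosome 4 at 106733915 to 106748292, gave 608 in knockout-labelled and 234 in wildtype islets with its 1 probe set, 1417443_at. This is 2.60-fold higher, and 0.746% of all genes had a higher ratio. The 10 genes lie on 7 chromosomes, and the 4 higher ones on separate chromosomes.

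**Figure D2:**
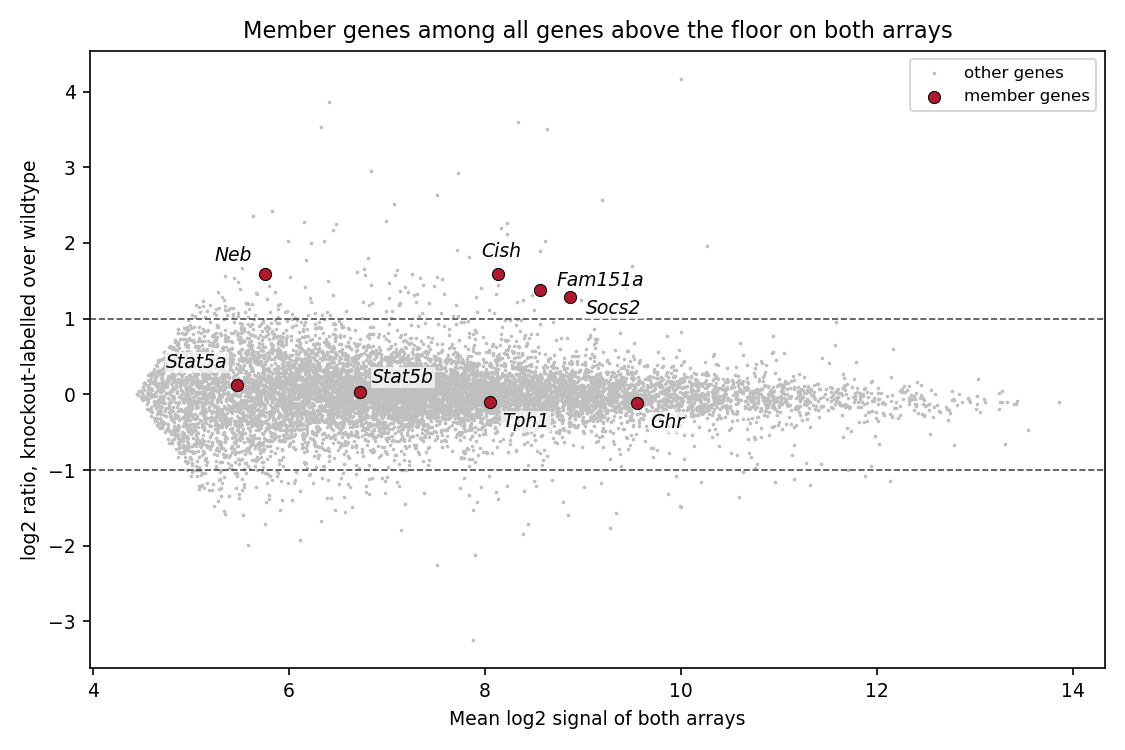
Log2 ratio of knockout-labelled over wildtype signal against the mean log2 signal of both arrays, for the 10450 genes above the floor on both (grey) with the 8 measured members in red and 2-fold marked by dashed lines. Neb, Cish, Fam151a and Socs2 lie above the upper line, and Stat5a, Stat5b, Tph1 and Ghr lie inside the cloud near 0.

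Other genes of the pathway were read from lists that were likewise chosen with these data known, each gene by its brightest probe set. Their shares at 2-fold stand beside 1.82% higher and 1.44% lower over all genes, and nothing is read from them. Ligand genes with a probe set gave little signal. Of these 5, 4 were under the floor on both arrays, among them mouse Prl and Gh. The placental gene Prl2a1 was under it in knockout-labelled islets. The ligand genes Prl3d1, Prl3b1 and Prl2c2 had no probe set assigned to a single gene and were not read. Janus kinase genes and the other STAT genes were within 2-fold in 7 of 7 cases, with a median log2 ratio of -0.10. The members of that list farthest from 0 were Jak3 at -0.75 and Stat2 and Stat6 both at -0.34. The other measured probe set was at -0.08 for Stat2 and -0.29 for Stat6. Jak2 is the kinase of the receptors encoded by Prlr and Ghr and was named for that role after its value was seen. It gave 217 in knockout-labelled and 222 in wildtype islets.

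The other SOCS genes did not share the ratios of Cish and Socs2. None of the 6 was at least 2-fold higher or lower, and their median log2 ratio was -0.13. Socs3, an inhibitor best known from interleukin-6 and leptin signalling, gave 653 in knockout-labelled and 1073 in wildtype islets, a log2 ratio of -0.72, and its other measured probe sets were at -0.63 and -0.15. Socs4 was at -0.23, with other measured probe sets at -0.19 and 0.05. Socs6 was at 0.01 with its brightest probe set and at 0.56 with its other measured probe set. Socs1 was above the floor in wildtype islets only, at least 1.17-fold lower. Phosphatase, PIAS and adaptor genes of the pathway had 0 of 10 at 2-fold and a median of 0.0021. Ptpn6, a phosphatase gene of blood cells, was at 0.47, Sh2b3 at -0.37 and Ptpn1 at 0.24. The other measured probe set was at 0.05 for Ptpn6, -0.37 for Sh2b3 and -0.03 for Ptpn1.

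Targets of STAT5 known from other tissues had 0 of 10 measured genes at 2-fold and a median log2 ratio of -0.08, with 5 more under the floor on both arrays, including the milk protein genes Csn2 and Wap. Nearest to 2-fold was Pim1, a survival kinase gene, at 92.0 in knockout-labelled and 46.2 in wildtype islets. Its other measured probe set was at 0.05. Igfals, which in liver is a growth hormone target and encodes a carrier of insulin-like growth factors, gave 154 in knockout-labelled and 83.1 in wildtype islets. Ccnd1 (cyclin D1) was at -0.77.

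Genes known to be raised by lactogens or pregnancy in islets, other than the members, included 3 of 7 measured genes with signals 2-fold higher or more, 0 that were 2-fold lower, and a median log2 ratio of 0.52. Ivd, an enzyme gene of leucine breakdown, gave 730 in knockout-labelled and 196 in wildtype islets. Tnfrsf11b, which encodes the decoy receptor osteoprotegerin, gave 560 in knockout-labelled and 226 in wildtype islets. Its other measured probe set had a log2 ratio of 1.36. Matn2, a matrix protein gene, gave 262 in knockout-labelled and 113 in wildtype islets, with another probe set at 1.88. Slc2a2 (glucose transporter) at 0.52, Wipi1 (autophagy) at 0.44 and Ehhadh (peroxisomal fatty acid oxidation) at 0.10 stayed within 2-fold. Of the cell division genes of this list, Foxm1 and Birc5 were under the floor on both arrays, and Ccna2 was above it in wildtype islets only, at 18.2 in knockout-labelled and 23.2 in wildtype islets. Of the cell cycle inhibitor genes that lactogens lower in islets, Cdkn2c was at -0.84, Cdkn1b at -0.56 and Men1 at 0.39. The other measured probe set of Men1 was at -0.11.

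In the serotonin list, 0 of 9 measured genes reached 2-fold and the median log2 ratio was -0.14. Ddc, which encodes the decarboxylase acting after tryptophan hydroxylase, gave 2558 in knockout-labelled and 1750 in wildtype islets, a log2 ratio of 0.55. Its other measured probe set was at 0.20. Slc18a1, a vesicular monoamine transporter gene, was at 0.49 and the monoamine oxidase gene Maob at 0.27. The serotonin receptor gene Htr2b, which pregnancy raises in islets, was under the floor on both arrays.

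Receptor genes of other cytokines that signal through STAT5 included 2 that were 2-fold higher or more, of 8 measured, and had a median of 0.09. Csf2rb, the shared receptor subunit for interleukin-3, interleukin-5 and GM-CSF, gave 581 in knockout-labelled and 76.3 in wildtype islets, with another probe set at a log2 ratio of 2.37. Csf2rb2, a close paralog whose transcripts the probe sets may share, was at 0.83. Il7r gave 58.0 in knockout-labelled and 26.2 in wildtype islets. Epor was above the floor in knockout-labelled islets only, at least 1.15-fold higher, and Il3ra in wildtype islets only, at least 1.42-fold lower.

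**Figure D3:**
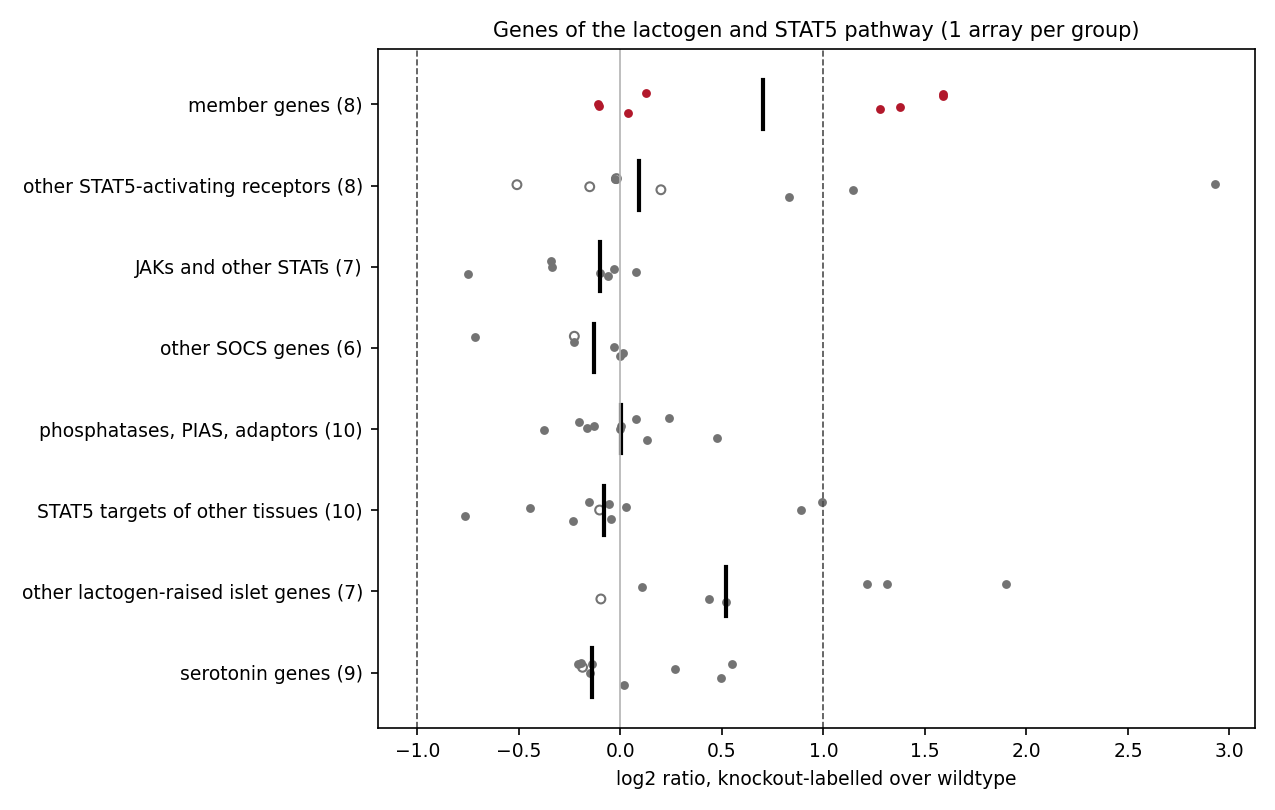
Log2 ratios of knockout-labelled over wildtype signal for the member genes (red) and 7 lists of pathway genes (grey), 1 point per gene above the floor on an array, with open points for ratios that are bounds, black bars for medians and the number of genes in parentheses. The members and the other lactogen-raised islet genes have the rightmost medians, 0.70 and 0.52. All of these sets were chosen with these data known. The other SOCS genes, each by its brightest probe set, lie at or left of 0 apart from a value of 0.01.

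Marker genes of cells that could carry these transcripts were read beside the members. Beside the counts below stand 1.82% of all genes at least 2-fold higher, 1.44% lower and a median log2 ratio of 0. The marker lists too were chosen with these data known, and nothing is read from their shares. Macrophage and dendritic cell markers, blood cells in which Csf2rb, Il7r and Cish can be expressed, were higher in 12 of 13 measured genes, 4 of them at least 2-fold. The summed signal of the 16 genes of the list, those under the floor included, was 1984 in knockout-labelled and 1276 in wildtype islets. Mrc1 was at a log2 ratio of 2.42, Fcer1g at no less than 1.26, C1qb at 1.21 and Tyrobp at 1.06. The other measured probe set of C1qb was at 0.30. Itgam, Itgax and Aif1 were under the floor on both arrays. The part of macrophages and dendritic cells in the higher Cish and Socs2 signals was not tested. Of 8 lymphocyte markers, 5, including Cd3e, Cd3g and Cd4, were under the floor on both arrays. Acinar cell markers were lower in 8 of 9 measured genes, 5 of them by at least 2-fold. Their summed signal was 19404 in knockout-labelled and 36682 in wildtype islets. The largest ratios were those of Reg1 (-1.49), Cel (-1.16), Cpa1 (-1.12) and Cela1 (-1.07).

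Of 12 skeletal muscle markers, read beside Neb, 8, including Ttn, Mb and Myh4, were under the floor on both arrays. The 4 others were next to it: Acta1 gave 23.7 in knockout-labelled and 34.6 in wildtype islets, and Mylpf gave 22.4 in knockout-labelled and 26.4 in wildtype islets. Ckm was above the floor in knockout-labelled islets only, at 23.3, and Pvalb in wildtype islets only, at 24.6. Most of these markers were too weak to show a difference, and the part of muscle RNA in the Neb signal was not tested. Of 9 mast cell markers, read beside Tph1, 6 were under the floor on both arrays, among them Cpa3 and Mcpt4. Kit gave 23.0 in knockout-labelled and 40.7 in wildtype islets, and Cma1 and Tpsb2 were above the floor in wildtype islets only, at 28 and 22.6. Beta cell markers had 0 of 9 at 2-fold and a median log2 ratio of -0.11, with a summed signal of 29263 in knockout-labelled and 32901 in wildtype islets. Ucn3 was at -0.54, Slc2a2 at 0.52, Pdx1 at -0.36 and Glp1r at 0.31. The other measured probe set of Pdx1 went the other way, at 0.34. Markers of the other islet endocrine cells had a median of -0.12 over 5 genes. Markers of fibroblasts, stellate and smooth muscle cells, in which Ghr can be expressed, had a median of -0.37 over 7 genes, with 4 of 11 under the floor on both arrays. Dcn was no less than 2.84-fold lower there and Col3a1 was at -1.03. Endothelial markers had a median of -0.19 over 8 genes and duct markers one of -0.36 over 4.

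**Figure D4:**
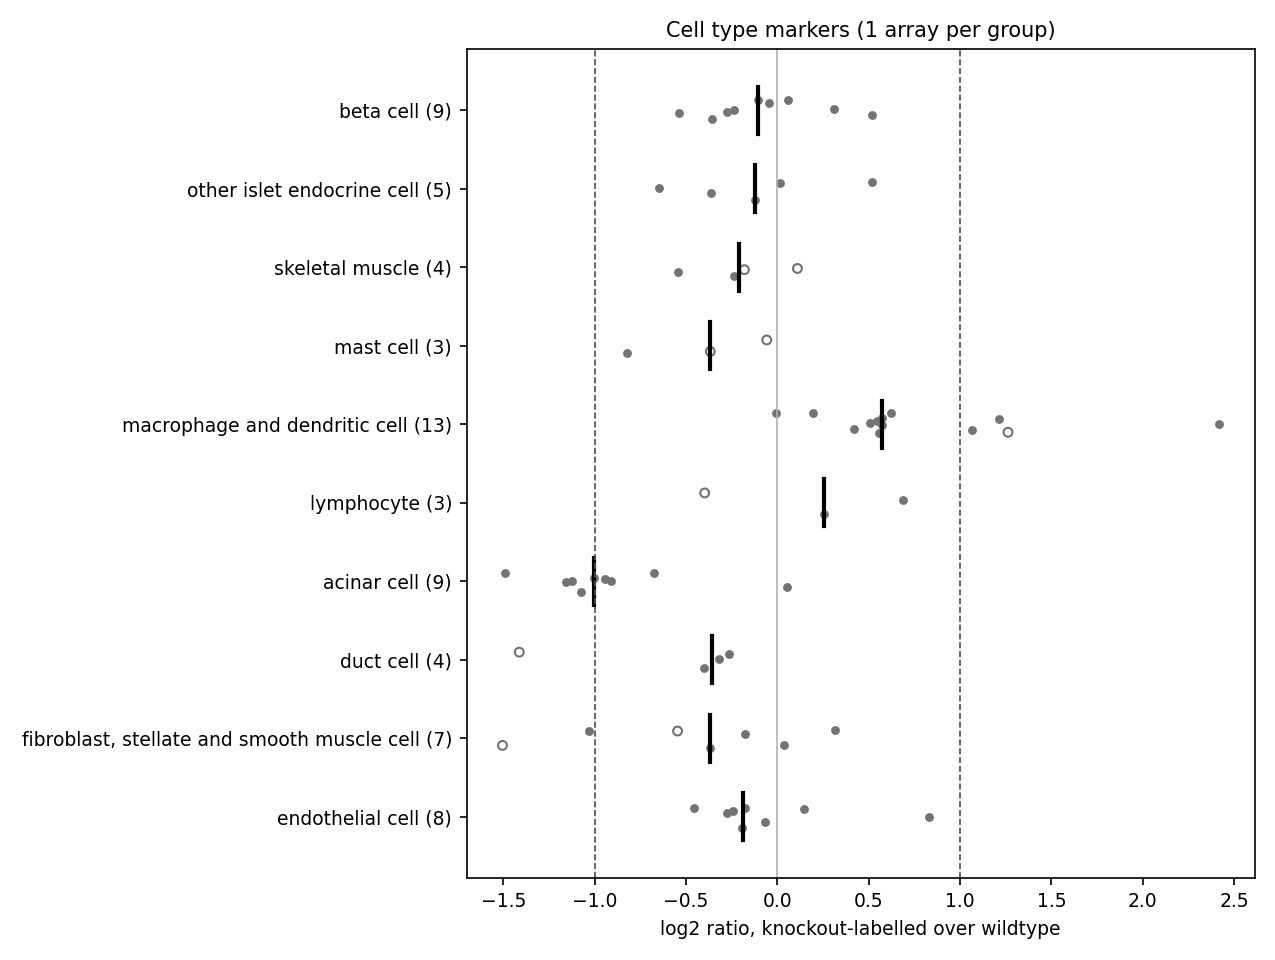
Log2 ratios of knockout-labelled over wildtype signal for cell type marker genes above the floor on an array, with open points for ratios that are bounds, black bars for medians and the number of genes in parentheses. Macrophage and dendritic cell markers lie to the right (median 0.57), acinar markers to the left (median -1.0), and beta cell markers spread around 0.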

How the data were processed

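Each array was deposited as intensities on a linear scale, 1 per probe set. The authors made them with MAS5, per the submitters' processing notes. Not given in the sources used here are its version, background step, scaling target and detection calls. The 45037 intensities per array had 2%-trimmed means of 99.3 on both arrays and were used as deposited. Genes were named through GEO's platform annotation, in which some names can be old: 34945 probe sets had 1 gene, 932 several and 9160 none. Only those with 1 gene were used.

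Signals under the 50th percentile of their array were raised to it before log2 ratios (knockout-labelled over wildtype) were taken. A gene above it on 1 array has a bound, written "at least" or "no less than". A gene above it on neither has no ratio. With 1 array per group no p-value or standard error exists, and the number of arrays limits the precision. The ratio and counting steps were tested on simulated data, with changes of more than 2-fold planted in brighter genes only. That run does not cover genes as weak as Neb, Stat5a and Stat5b, or changes close to the 2-fold limit. The members, lists and named genes (from each pathway list those at 2-fold and up to 3 more by size, from marker lists up to 4) were chosen with earlier results of these data known. Python 3.11.15, pandas 2.3.3, numpy 2.4.6 and, for loess, statsmodels 0.14.6 were used. The closing section gives the alternatives for floor, scaling, probe sets and fold limit.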

Additional observations from a re-analysis of the deposited data

How the results depend on the processing

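Cish, Fam151a, Ghr and Tph1 moved by less than 0.21, the median SD among probe sets of a gene, under all 7 alternatives of floor, scaling and probe set choice, with log2 ratios from 1.5 to 1.59, 1.32 to 1.38, -0.14 to -0.08 and -0.13 to -0.10. Neb was at 0.48 under a 70th percentile floor and at 1.22 with no floor and a pseudocount of 16. With the mean over all probe sets Socs2 was at 0.90, Stat5a at 0.34 and Stat5b at -0.23. The count of members at least 2-fold higher was therefore 3 instead of 4 with the 70th percentile floor (without Neb) and with the probe set mean (without Socs2), and 2 at a 3-fold limit (Cish and Neb). Stat5a had no value with the 70th percentile floor, being under it on both arrays. For Tph2 the log2 ratio was 0.93 under a 30th percentile floor and 0.48 with a pseudocount of 16. Over all genes, those higher and lower numbered 695 and 638 under a 30th percentile floor, 96 and 64 under a 70th percentile floor, 814 and 732 at a 1.5-fold limit, and 51 and 17 at a 3-fold limit. No scaling moved the median of all genes by more than 0.01. The median of the other lactogen-raised islet genes was 1.21 and that of the other cytokine receptors 1.45 with the 70th percentile floor, which leaves fewer genes. With the 30th percentile floor the receptor median was 0.40. No paired analysis was possible because the groups compared share fewer than 2 replicate numbers, and no array could be left out. Weak signals near the floor limit Stat5a, Neb and Tph2 most.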
